A study of Caenorhabditis elegans with 6 samples.

Results

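The Hedgehog-related and Patched-related genes of Caenorhabditis elegans were taken from the deposited table of read counts by symbol. A gene was included when its name begins with grl, grd, wrt, ptr or ptc, or when it is qua-1 or hog-1. This gave 85 of the 46926 genes in the table, all of them protein-coding in the annotation. Of these, 59 encode Hedgehog-related proteins, namely 31 ground-like (grl), 16 groundhog (grd) and 10 warthog (wrt) genes with qua-1 and hog-1. The other 26 encode Patched-related proteins, namely 24 ptr genes with ptc-1 and ptc-3. RNA came from whole worms of wild-type genotype labelled as the fourth larval stage (L4). The FUDR group had 3 libraries from worms exposed to 50 µM FUDR, a fluorinated deoxyuridine that blocks thymidylate synthesis, and the OP50 group had 3 libraries from untreated worms. Plates of the OP50 group carried the usual food bacterium, Escherichia coli OP50. Poly(A) RNA was sequenced, and the comparison asks how transcript levels differ in FUDR.

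In flies and vertebrates, secreted Hedgehog binds the membrane protein Patched and so releases Smoothened, which acts on GLI transcription factors. Worms have neither a true Hedgehog nor Smoothened, but have large families of secreted proteins with Wart or Ground domains in place of the Hedgehog signalling domain. Some of these carry the Hog domain, which cleaves the precursor itself, as in Hedgehog. The worm Patched homologues and the Patched-related proteins are membrane proteins with a sterol-sensing domain. Many members act in the epidermis and its apical matrix, are needed for molting, and are transcribed in pulses that recur with each larval molt.

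The 6 libraries held between 61312034 and 99234226 gene counts, and a floor of 3 counts was at most 0.0489 CPM, the read count scaled to library size. Markers of epidermis, seam, glia, intestine, muscle, pharynx, neurons, germline and sperm were present, and no marker was at 0 in every library. The summed level of 12 germline markers was 2759 to 3703 CPM in FUDR and 6314 to 6550 CPM in OP50, and 11 of them fell. Of 6 epidermal markers only nhr-23 (−0.73) fell, and their sum was 338 to 379 CPM in FUDR and 338 to 361 CPM in OP50. Of 7 seam markers nhr-73 (1.91) rose and egl-18 (−0.45) fell. Counts of nhr-73 were low, at 16, 27 and 31 in FUDR and 15, 1 and 3 in OP50. The seam markers summed to 26.96 to 30.8 CPM in FUDR and 30.5 to 33.8 CPM in OP50. Of 9 tested glial markers vap-1 and hlh-17 rose while lin-26 and kcc-3 fell. Counts of hlh-17 were also low, at 14, 35 and 45 in FUDR and 13, 4 and 10 in OP50. The glial markers, with the untested delm-1, summed to 92.4 to 111 CPM in FUDR and 119.1 to 127 CPM in OP50. Of 8 neuronal markers 4 rose, with a sum of 432 to 477 CPM in FUDR and 386 to 435 CPM in OP50. Of other lists, 2 of 7 intestinal and 1 of 5 pharyngeal markers rose, and 1 of 5 excretory and 1 of 7 sperm markers fell. Of 3 tested embryo markers pie-1 and skn-1 fell and end-3 was not called. The low-count end-1, med-1 and tbx-37 were not tested. Of 6 muscle markers 0 were called, with a sum of 6430 to 12276 CPM in FUDR and 10976 to 11981 CPM in OP50. Within FUDR the muscle gene unc-54 had 5720, 3576 and 1995 CPM, lowest in replicate 3. Pharyngeal markers summed to 311 to 908 CPM in FUDR and 633 to 928 CPM in OP50. Transcripts of adult genes were abundant in libraries labelled L4, with 1 of 4 adult markers called. That marker, the collagen gene col-19, rose, at a mean of 2972 CPM in FUDR and 2243 CPM in OP50 (0.41). The yolk genes vit-2 (−0.54) and vit-6 (−0.53) and the collagen gene col-119 (0.10) were not called, with vit-2 at a mean of 13225 CPM in FUDR and 19223 CPM in OP50. In whole worms, fewer cells of a type and less RNA per cell cannot be told apart.

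Most members did not pass the test, and of those that did 6 rose and 16 fell in FUDR under TMM scaling, against 10 and 12 under upper quartile scaling and 10 and 10 using library size alone. Of the 85 members 71 passed the filter on low counts and were tested with edgeR's quasi-likelihood F test, with p-values adjusted over all 17022 tested genes and called at 0.05. Of the tested members 8.45% were called higher, 22.5% lower and 31.0% in either direction, against 20.0%, 21% and 41.0% of all tested genes, so that the share called lower was near that of all genes. FUDR and OP50 libraries were fully apart for 28 of 71 members (39.4%), against 54.7% of all tested genes. The median log2 fold change of the tested members was −0.10, against 0.05 over all tested genes, and it was 0.05 under upper quartile scaling, or 0.12 using library size only. Those scalings moved the median of all genes to 0.20 and 0.28, and directions below are relative to TMM scaling. No called member changed sign under any scaling. A call in the same direction was kept by 15 of the 22 called members in all 13 alternatives.

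**Figure D1:**
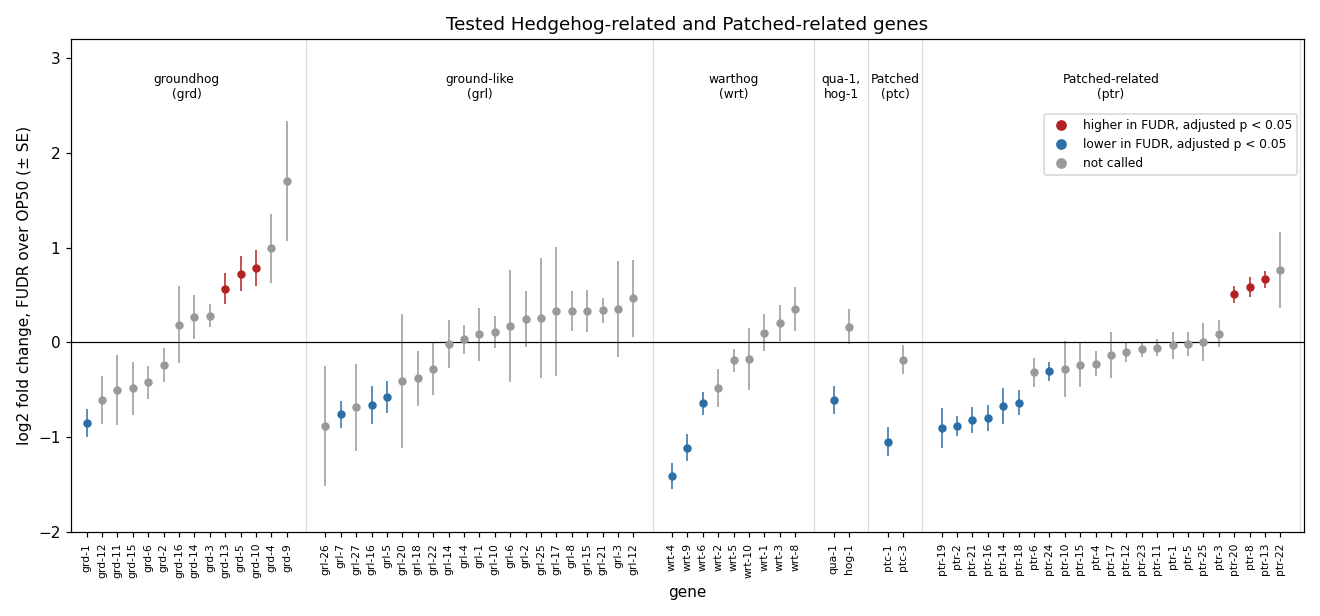
Log2 fold change (FUDR over OP50) of the 71 tested members on the vertical axis, grouped by family and ordered within it, with bars for the standard error. Red points were called higher (6 genes), blue points called lower (16 genes) and grey points were not called.

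Calls were more frequent among abundant members. All 22 called members were above 1 CPM, where 17 tested members lay below it, and 4 of the 5 members over 100 CPM were called. Among all tested genes under 1 CPM, 20.5% were called higher and 2.45% lower, and over 100 CPM 9.02% were called higher and 50.3% lower. Among the called members a change of at least 2-fold was reached by 3, all lower (wrt-4, wrt-9 and ptc-1). Of all 17022 tested genes 1348 were called higher and 310 lower with a change of that size.

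Among the warthog genes, 3 of 9 tested members fell and 0 rose, against 21% and 20.0% of all tested genes. The 3 that fell are all on the X chromosome, as is the uncalled wrt-2. The gene wrt-4 (chromosome X, 15752257 to 15757269, WBcel235) encodes a protein with a Wart and a Hog domain and had the largest fall of the 71 tested members. Its level was 26.6, 25.4 and 20.1 CPM in the FUDR libraries, against 65.0, 72.6 and 53.7 CPM in the OP50 libraries. Every FUDR library was below every OP50 library, and the log2 fold change was −1.41 ± 0.140 (SE, n = 3 each, edgeR adjusted p = 0.000226). The gene wrt-9 (chromosome X, 1576637 to 1591320), whose product has a Wart domain alone, had 5.41, 5.13 and 3.82 CPM in FUDR, against 10.5, 10.1 and 10.2 CPM in OP50. The groups did not overlap, with a change of −1.11 ± 0.146 (edgeR adjusted p = 0.000679). A smaller fall was seen for wrt-6 (chromosome X, 3480250 to 3483666), another Hog-domain gene, at 28.5, 21.6 and 23.8 CPM in FUDR, against 38.7, 42.1 and 34.3 CPM in OP50 (−0.64 ± 0.123, edgeR adjusted p = 0.00358). These 3 falls were called in all 13 alternatives.

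The seam-expressed wrt-2 had 9.07, 9.56 and 8.44 CPM in FUDR, against 16.7, 8.98 and 12.1 CPM in OP50. Its groups overlapped through OP50 replicate 2, and its change of −0.48 ± 0.201 missed the threshold (edgeR adjusted p = 0.0843). Without that library it was −0.68 (edgeR adjusted p = 0.0174), and DESeq2 gave an adjusted p of 0.0397. The other uncalled members wrt-1, wrt-3, wrt-5, wrt-8 and wrt-10 lay between −0.19 and 0.35. The wrt median was −0.19, and it became 0.05 with library size only.

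Of 14 tested groundhog genes 3 rose and 1 fell, against 20.0% and 21% of all tested genes. The 3 that rose were the Hedgehog-related genes called higher. The gene grd-10 (chromosome IV, 3441055 to 3441841), a gene expressed in the seam, had 40.4, 47.9 and 67.8 CPM in FUDR, against 29.4, 26.4 and 35.0 CPM in OP50. The FUDR libraries were all higher, with the widest margin in replicate 3 (0.78 ± 0.189, edgeR adjusted p = 0.0120). The gene grd-5 (chromosome V, 8619032 to 8619870) had 111, 124 and 169 CPM in FUDR, against 64.7, 91.1 and 89.3 CPM in OP50. Again the groups did not overlap and FUDR replicate 3 was highest (0.72 ± 0.183, edgeR adjusted p = 0.0144). The gene grd-13 (chromosome IV, 3438312 to 3439507) had 20.1, 20.5 and 23.7 CPM in FUDR, against 11.7, 13.4 and 18.4 CPM in OP50 (0.57 ± 0.164, edgeR adjusted p = 0.0225). Its call was lost without FUDR replicate 2 (adjusted p = 0.0575) or 3 (0.0600) or OP50 replicate 1 (0.0701) or 2 (0.0815), while grd-5 and grd-10 were called in all 13 alternatives.

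The fall in this family was in grd-1 (chromosome X, 11109440 to 11115887), which encodes a Ground and a Hog domain. It had 8.15, 7.61 and 7.34 CPM in FUDR, against 16.99, 12.7 and 11.8 CPM in OP50, with no overlap (−0.85 ± 0.148, edgeR adjusted p = 0.00240). The abundant grd-3 had 127, 128 and 141 CPM in FUDR, against 88.3, 116 and 121 CPM in OP50. Its groups were separate but the change of 0.28 ± 0.124 was not called (edgeR adjusted p = 0.0961), except under upper quartile scaling (0.44, adjusted p = 0.0192) and library size only (0.52, adjusted p = 0.00582). At low level, grd-9 had 0.509, 0.401 and 0.538 CPM in FUDR, against 0.0631, 0.0496 and 0.330 CPM in OP50, where replicate 3 stood above the other OP50 libraries. Its change of 1.70 ± 0.630 was not called (edgeR adjusted p = 0.0574) and was 3.03 without OP50 replicate 3 (edgeR adjusted p = 0.00472). DESeq2 gave grd-9 an adjusted p of 0.0301, limma-voom 0.0197 and edgeR with the replicate block 0.0373. With edgeR the adjusted p of grd-9 was also 0.0416 under upper quartile scaling, 0.0273 with library size only and 0.0391 with no filter. The grd-9 gene overlaps srd-16 on the opposite strand, and the strand setting of the counting is not given in the sources used here. The other 8 uncalled groundhog genes lay between −0.61 (grd-12) and 0.99 (grd-4), and these 2 had groups that did not overlap. The gene grd-4 was picked out after its values were seen, at 1.89, 1.99 and 2.94 CPM in FUDR and 0.589, 1.14 and 1.73 CPM in OP50. Its edgeR adjusted p was 0.0554, and 0.0176 without OP50 replicate 3. DESeq2 gave grd-4 an adjusted p of 0.0227 and limma-voom 0.0331. With edgeR it was called under upper quartile scaling (0.0335), library size only (0.0203) and the replicate block (0.0150). Likewise grd-6 (−0.42, edgeR adjusted p = 0.0875) was called lower by DESeq2 (0.0449) and by edgeR without FUDR replicate 1 (0.00265).

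Of 21 tested ground-like genes 3 fell and 0 rose, against 21% and 20.0% of all tested genes. The gene grl-7 (chromosome V, 11344828 to 11347012) encodes a secreted epidermal protein. Its transcript was at 19.9, 18.2 and 14.7 CPM in FUDR, against 33.0, 30.9 and 25.3 CPM in OP50. The groups were apart, and the change of −0.76 ± 0.139 (edgeR adjusted p = 0.00297) was called in all 13 alternatives. The most abundant ground-like gene, grl-16 (chromosome I, 572173 to 575120), has been linked with wrt-8 to axon guidance. It had 244, 195 and 143 CPM in FUDR, against 251, 366 and 300 CPM in OP50. FUDR replicate 1 and OP50 replicate 1 nearly met, and the change was −0.66 ± 0.204 (edgeR adjusted p = 0.0321). That call was lost without FUDR replicate 2 (adjusted p = 0.0839) or 3 (0.0769) or OP50 replicate 2 (0.102) or 3 (0.0596), and under upper quartile scaling (0.0542), library size only (0.0616) or no filter (0.0678).

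The gene grl-5 (chromosome V, 4412748 to 4414663) had 11.6, 10.7 and 14.3 CPM in FUDR, against 21.7, 18.6 and 14.2 CPM in OP50. Its groups overlapped in replicate 3, and the call (−0.57 ± 0.171, edgeR adjusted p = 0.0258) was lost without FUDR replicate 1 (adjusted p = 0.0594) or 2 (0.111) or OP50 replicate 1 (0.0985) or 2 (0.0689), under upper quartile scaling (0.0950) or library size only (0.169). The second most abundant ground-like gene per length, grl-4, had 67.0, 51.6 and 54.6 CPM in FUDR, against 43.6, 63.8 and 62.1 CPM in OP50, a change of 0.03 ± 0.157 (edgeR adjusted p = 0.886). Its sign depended on single libraries, at −0.09 without FUDR replicate 1 and −0.13 without OP50 replicate 1. Of the uncalled members the change furthest from 0 was that of grl-26 (−0.88 ± 0.634, edgeR adjusted p = 0.296), which had at most 0.159 CPM in FUDR and at most 0.210 CPM in OP50. The other 16 uncalled ground-like genes lay between −0.68 and 0.47, and 2 of them, grl-8 and grl-21, had groups that did not overlap. The gene grl-21 (0.34, edgeR adjusted p = 0.0686) was called higher under upper quartile scaling (0.49) or library size only (0.57).

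The gene qua-1 (chromosome II, 8198803 to 8204004), the quahog gene, encodes a Hog-domain protein required for molting. It had 42.02, 39.8 and 34.6 CPM in FUDR, against 73.7, 52.2 and 51.4 CPM in OP50. All FUDR libraries were lower, by −0.61 ± 0.147 (edgeR adjusted p = 0.0107), a call lost only with library size only (−0.39, adjusted p = 0.0644). The gene hog-1, which encodes a Hog domain without a Wart or Ground domain, had 3.01, 2.70 and 3.99 CPM in FUDR, against 2.71, 3.26 and 2.68 CPM in OP50. It was not called (0.17 ± 0.187, edgeR adjusted p = 0.499) and was at −0.019 without FUDR replicate 3.

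The members whose products carry a Hog domain were gathered after their values were seen. Of these 10 genes 9 were tested, 4 fell (wrt-4, wrt-6, grd-1 and qua-1) and 0 rose, with a median of −0.50. Of the 37 tested Hedgehog-related genes without that domain, 4 fell and 3 rose, with a median of 0.11. Over all tested genes 21% fell and 20.0% rose. The lists also differ in level. Of the 17 tested members under 1 CPM, where 0 were called, all but grd-11 and ptr-22 are Hedgehog-related genes without that domain. Neither the difference between these lists nor the part of level in it was tested. The uncalled Hog-domain genes were grd-11 (−0.50), grd-2 (−0.24), wrt-1 (0.10), hog-1 (0.17) and wrt-8 (0.35).

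**Figure D2:**
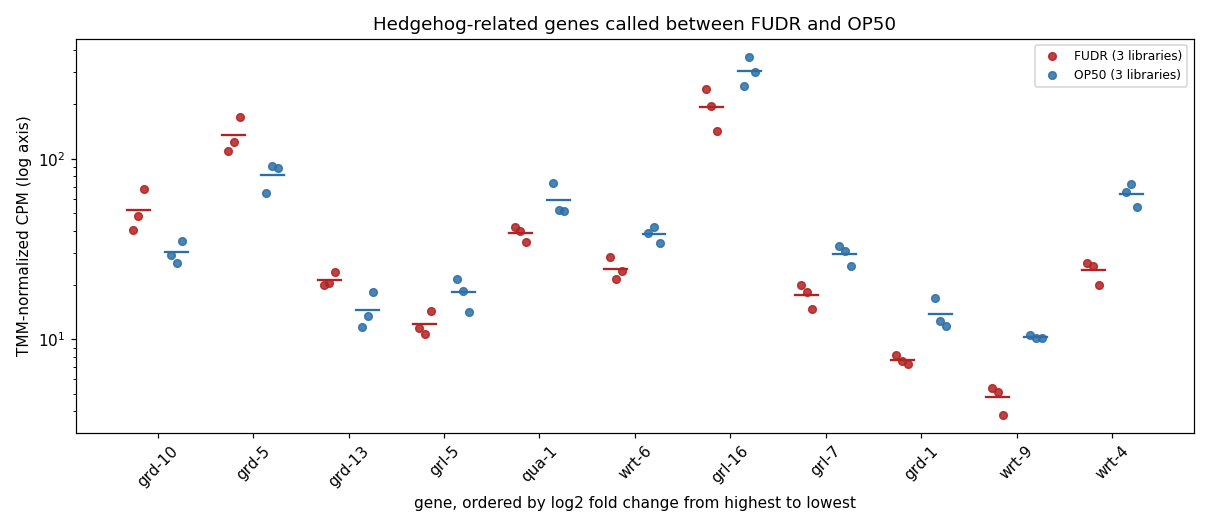
TMM-normalized CPM on a log axis for the 11 called Hedgehog-related genes, ordered by log2 fold change. Red points are the 3 FUDR libraries and blue points the 3 OP50 libraries, with lines at the means, and the groups overlap for grl-5 alone.

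Patched itself is represented by ptc-1 and ptc-3, and ptc-1 fell while ptc-3 was not called. The gene ptc-1 (chromosome II, 7893222 to 7900515), whose product is required in the germline for cytokinesis, had 311, 279 and 202 CPM in FUDR, against 566, 537 and 532 CPM in OP50. The OP50 libraries lay within a narrow range, all FUDR libraries were below it, and FUDR replicate 3 was lowest (−1.04 ± 0.150, edgeR adjusted p = 0.000956). The call was kept in all 13 alternatives, where the change ran from −1.18 to −0.83. In the same libraries the summed germline markers fell as given above, and their part in the ptc-1 result was not tested. The gene ptc-3 (chromosome II, 2845412 to 2852593), which is essential for larval development, had 81.4, 74.5 and 51.8 CPM in FUDR, against 85.5, 77.2 and 72.5 CPM in OP50. These groups overlapped, and the change of −0.18 ± 0.156 (edgeR adjusted p = 0.386) became 0.035 with library size only (adjusted p = 0.852).

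Of 23 tested ptr genes 7 fell (30.4%) and 3 rose (13.0%), against 21% and 20.0% of all tested genes. The most abundant per length, ptr-2 (chromosome I, 3789309 to 3792797), had 96.0, 91.1 and 75.5 CPM in FUDR, against 160, 164 and 158 CPM in OP50. The distance between the groups far exceeded the spread within either, at −0.88 ± 0.102 (edgeR adjusted p = 0.000391). The gene ptr-21 (chromosome I, 550696 to 556709) had 56.7, 47.1 and 38.6 CPM in FUDR, against 77.2, 84.3 and 89.5 CPM in OP50 (−0.82 ± 0.135, edgeR adjusted p = 0.00178). The gene ptr-16 (chromosome V, 1165711 to 1174969) had 7.27, 6.44 and 7.94 CPM in FUDR, against 13.9, 12.98 and 10.8 CPM in OP50 (−0.80 ± 0.134, edgeR adjusted p = 0.00197). At lower level ptr-19 (chromosome III, 10781853 to 10791176) had 1.51, 1.61 and 1.24 CPM in FUDR, against 3.25, 2.08 and 2.82 CPM in OP50 (−0.90 ± 0.211, edgeR adjusted p = 0.00919). These 4 genes had separate groups and were called in all 13 alternatives.

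The gene ptr-18 (chromosome II, 12965546 to 12978171) encodes a protein that promotes clearance of extracellular GRL-7 in the epidermis. It had 11.6, 13.6 and 14.9 CPM in FUDR, against 23.6, 20.7 and 18.1 CPM in OP50, so that ptr-18 and grl-7 were lower in the same libraries. Its change of −0.64 ± 0.131 (edgeR adjusted p = 0.00522) was not called with library size only (adjusted p = 0.0601). On the opposite strand ptr-18 overlaps Y38F1A.4 (−0.37, edgeR adjusted p = 0.573), and reads of the pair may not be told apart. The gene ptr-14 (chromosome IV, 10615427 to 10620964) had 17.96, 17.4 and 27.1 CPM in FUDR, against 39.1, 30.3 and 29.8 CPM in OP50. FUDR replicate 3 came close to the OP50 libraries, and the call (−0.67 ± 0.185, edgeR adjusted p = 0.0203) was lost without FUDR replicate 1 (adjusted p = 0.0623) or 2 (0.0842) or OP50 replicate 1 (0.0713), under upper quartile scaling (0.0699) or library size only (0.127). The smallest fall was that of ptr-24 (chromosome X, 13338028 to 13348125), at 64.1, 58.7 and 53.7 CPM in FUDR, against 67.0, 72.6 and 78.4 CPM in OP50 (−0.31 ± 0.0954, edgeR adjusted p = 0.0311). This call was lost without FUDR replicate 2 (adjusted p = 0.0938) or OP50 replicate 2 (0.0887) or 3 (0.120), under upper quartile scaling (−0.16, adjusted p = 0.151) or library size only (−0.08, adjusted p = 0.428), and with the replicate number as a block (0.0578).

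The 3 ptr genes that rose are all on chromosome II and were called in all 13 alternatives. The gene ptr-13 (chromosome II, 11156589 to 11162481) had 51.4, 51.6 and 52.4 CPM in FUDR, against 29.4, 32.4 and 36.2 CPM in OP50. Its FUDR libraries were almost level and above each OP50 library (0.67 ± 0.0912, edgeR adjusted p = 0.000797). The gene ptr-8 (chromosome II, 10889279 to 10893277) had 29.2, 26.2 and 24.1 CPM in FUDR, against 19.1, 17.1 and 16.9 CPM in OP50 (0.58 ± 0.103, edgeR adjusted p = 0.00252). It overlaps sra-10 on the opposite strand, a gene at 0.89 that was not called (edgeR adjusted p = 0.0609), so that reads of the pair may not be told apart. The gene ptr-20 (chromosome II, 15158180 to 15163614) had 19.6, 18.8 and 17.3 CPM in FUDR, against 12.8, 13.3 and 13.1 CPM in OP50 (0.51 ± 0.0922, edgeR adjusted p = 0.00289). As with ptr-13, the groups lay apart by more than the range within either.

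The remaining 13 tested ptr genes were not called. The change furthest from 0 among them was that of ptr-22, at 0.764, 0.714 and 0.482 CPM in FUDR and 0.515, 0.430 and 0.192 CPM in OP50 (0.77 ± 0.401, edgeR adjusted p = 0.156). The other 12 (ptr-1, ptr-3, ptr-4, ptr-5, ptr-6, ptr-10, ptr-11, ptr-12, ptr-15, ptr-17, ptr-23 and ptr-25) lay between −0.31 and 0.09, and of these ptr-6 alone had groups that did not overlap. The median of the ptr genes was −0.13, but 0.015 under upper quartile scaling, or 0.09 using library size only.

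**Figure D3:**
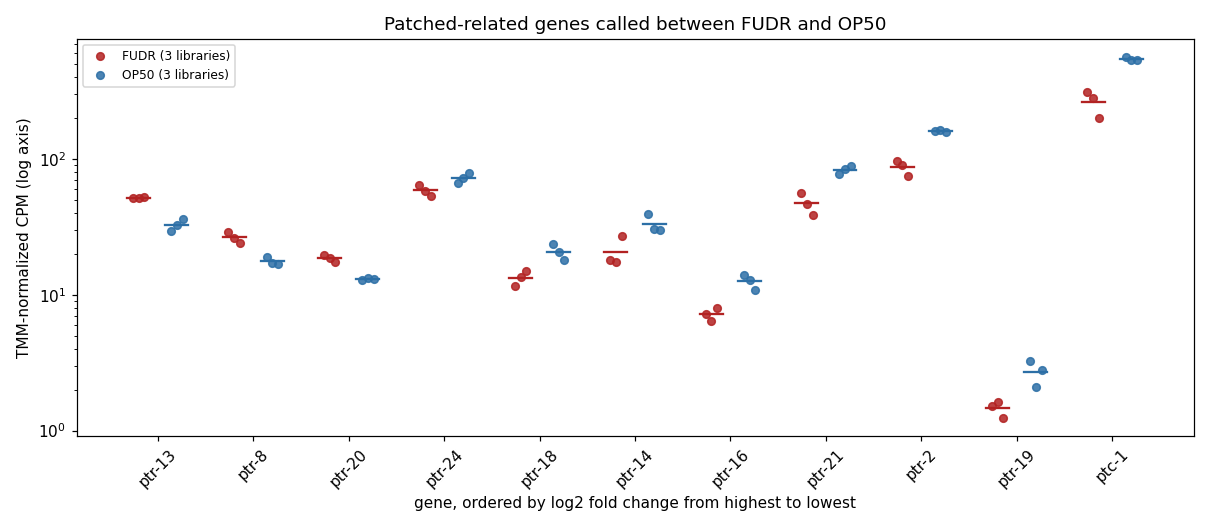
TMM-normalized CPM on a log axis for the 11 called Patched-related genes, ordered by log2 fold change. Red points are the 3 FUDR libraries and blue points the 3 OP50 libraries, with lines at the means, and the groups of all 11 genes are separate.

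Summed over a family, the levels differed in direction. The wrt genes summed to 106, 107 and 111 CPM in FUDR, against 185, 171 and 158 CPM in OP50. The called wrt-4 alone made up 22.3% of the mean in FUDR and 37.3% in OP50. The wrt sum was lower in every FUDR library, also with library size only (108 to 126 CPM in FUDR and 142 to 177 CPM in OP50). The grd genes summed to 429, 429 and 516 CPM in FUDR, against 302, 388 and 403 CPM in OP50, and grd-5 alone made up 29.4% of the mean in FUDR and 22.4% in OP50. Their sum was higher in every FUDR library, also with library size only. The grl genes summed to 386, 319 and 281 CPM in FUDR, against 393, 527 and 440 CPM in OP50, of which grl-16 was 59.0% in FUDR and 67.6% in OP50. With library size only the grl groups overlapped, at 318 to 396 CPM in FUDR and 376 to 483 CPM in OP50.

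The ptc genes summed to 392, 354 and 254 CPM in FUDR, against 651, 614 and 605 CPM in OP50, with ptc-1 at 79.2% in FUDR and 87.4% in OP50. The ptr genes summed to 510, 481 and 466 CPM in FUDR, against 615, 609 and 614 CPM in OP50. With library size only the ptr sums were nearer, at 523 to 528 CPM in FUDR and 552 to 590 CPM in OP50, but still did not overlap. These sums are descriptions and were not tested.

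**Figure D4:**
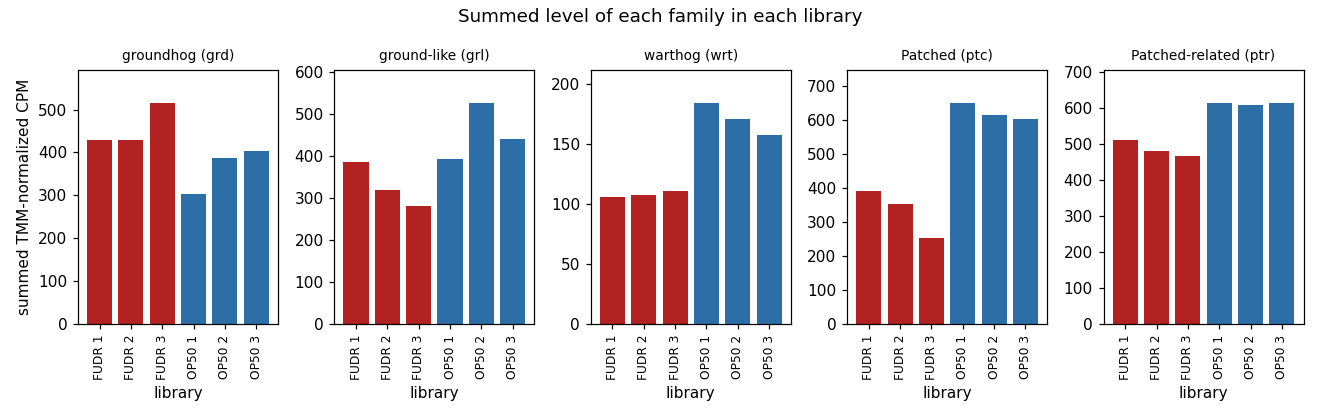
Summed TMM-normalized CPM of each family in each library, FUDR in red and OP50 in blue. The grd sums are higher in all 3 FUDR libraries, and the grl, wrt, ptc and ptr sums are lower, although with library size only the grl groups overlap.

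Levels per length, as CPM per kilobase of exon (RPKM), ran from 0.00768 RPKM for grd-8 to 207 RPKM for grd-5 in the mean of all 6 libraries. Next to grd-5 were grd-3 at 174 RPKM and grl-16 at 149 RPKM. In FUDR grd-5 was at 257 ± 58.7 RPKM and grd-3 at 191 ± 11.5 RPKM, against 156 ± 28.2 RPKM and 157 ± 25.6 RPKM in OP50 (SD, n = 3 each). The order of these 2 levels was not beyond the spread in OP50. Among Patched-related genes ptc-1 was highest at 79.7 RPKM, followed by ptr-2 at 42.7 RPKM, ptr-24 at 22.2 RPKM and ptr-21 at 19.3 RPKM. Among warthog genes wrt-4 was highest at 23.2 RPKM, with wrt-6 at 15.998 RPKM. In FUDR wrt-4 and wrt-6 were at 12.7 ± 1.83 and 12.5 ± 1.80 RPKM, against 33.7 ± 5.05 and 19.5 ± 1.99 RPKM in OP50. The lead of wrt-4 over wrt-6 was therefore present in OP50 and not in FUDR beyond the spread.

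**Figure D5:**
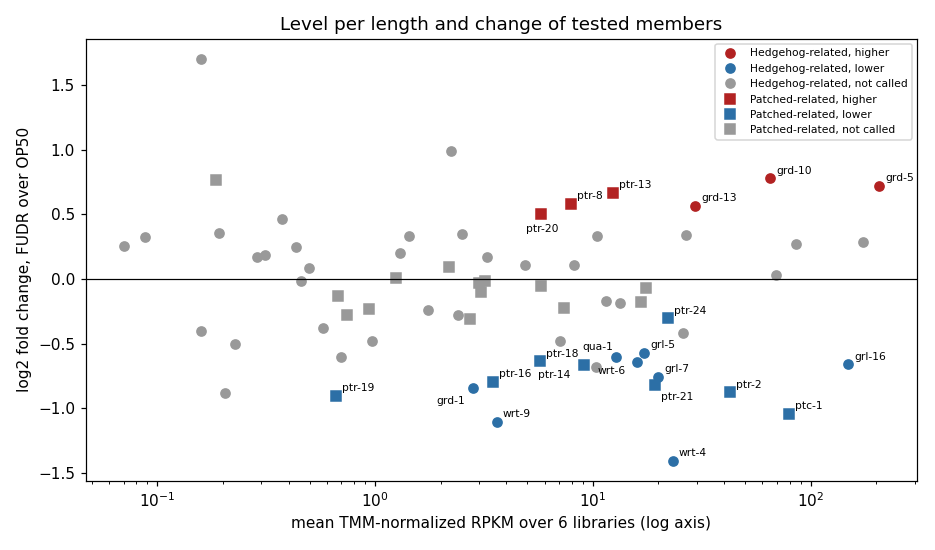
Mean level of each tested member over all 6 libraries (TMM-normalized RPKM, log axis) against its log2 fold change (FUDR over OP50). Circles are Hedgehog-related and squares Patched-related genes, and the called genes, named in the plot, run from ptr-19 at 0.660 RPKM to grd-5 at 207 RPKM.

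The 14 members that did not pass the filter were 10 grl genes (grl-9, grl-11, grl-13, grl-19, grl-23, grl-24, grl-28, grl-29, grl-30 and grl-31), grd-7, grd-8, wrt-7 and ptr-9. The Hog-domain gene wrt-7 had counts of 3, 1 and 4 in FUDR, against 10, 13 and 18 in OP50. These do not overlap, and the ratio after scaling was 0.182 (95% interval 0.0738 to 0.394, counting error only). Without the filter wrt-7 was lower at an edgeR adjusted p of 0.0327. The gene grl-19 had counts of 2, 12 and 10 in FUDR, against 0, 1 and 0 in OP50, a ratio of 22.4 with a counting interval of 3.66 to 922. Its edgeR adjusted p was 0.0385 without the filter, 0.0146 without FUDR replicate 1 and 0.0408 without OP50 replicate 2, and it overlaps aass-1 on the opposite strand. The gene grl-31 had counts of 8, 15 and 3 in FUDR, against 3, 0 and 2 in OP50 (ratio 4.86, 1.84 to 16.2), and its edgeR adjusted p was 0.133 without the filter and 0.0398 without FUDR replicate 3. The gene grd-8 had counts of 0, 3 and 2 in FUDR and 0 in each OP50 library. The other 10 had at most 32 counts over the FUDR libraries and 22 over the OP50 libraries, and none was called without the filter. Differences at such counts were at the limit of what this depth can show.

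Members lie on all 6 nuclear chromosomes, with 32 of 85 on chromosome V and 13 on X. On the X chromosome 5 of 12 tested members fell (wrt-4, wrt-6, wrt-9, grd-1 and ptr-24) and 0 rose. The call of ptr-24 was lost in 6 of the 13 alternatives. Over all tested X-linked genes 15.4% fell and 18.5% rose. On chromosome V 3 of 23 tested members fell and 1 rose, against 15.8% and 25.1% of all tested genes there. On chromosome II 3 of 11 tested members fell and 3 rose, against 21.8% and 19.1% of all tested genes there. On chromosome I 3 of 9 tested members fell and 0 rose, against 27.2% and 16.5% of that chromosome's tested genes. On chromosome III 1 of 5 fell and 0 rose, against 26.3% and 19.5% of its tested genes. On chromosome IV 1 of 11 fell and 2 rose, against 21.2% and 19.4%. Members were not matched for level, and whether they depart from these shares was not tested. Their proteins differ in size. The median was 212 residues for grl, 329 for grd, 482.5 for wrt and 900.5 for ptr genes from the annotated coding lengths.

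Members lay within 10 kb of another in 9 neighbouring pairs. A run on the plus strand of chromosome IV holds grd-13, grd-3 and grd-10, with 147 bases between grd-13 and grd-3 and 601 bases between grd-3 and grd-10. All 3 had every FUDR library above every OP50 library, at 0.57, 0.28 and 0.78, although grd-3 was not called. The tested genes within 10 kb of grd-10 (3 genes), grd-13 (4 genes) and grd-5 (6 genes) that are not members included 0 called in either direction. The windows of grd-10 and grd-13 overlap, so a gene can be listed for both. Around all 22 called members, 17 of 82 such flanking genes were higher and 11 lower. Of all 17022 tested genes 20.0% were called higher and 21% lower. Whether the flanking genes depart from those shares was not tested. The adjacent wrt-1 and wrt-10, 15 bases apart, were not called (0.10 and −0.17). The neighbours grd-14 and grd-4, 184 bases apart on X, were not called either (0.27 and 0.99).

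Worm homologues of other Hedgehog pathway and sterol-sensing proteins were read from the same fit. Of 17 tested genes 9 fell and 1 rose, with a median of −0.39. Over all tested genes 21% fell and 20.0% rose, with a median of 0.05. Falls were more frequent among abundant genes, at 33.0% of all tested genes at 10 to 100 CPM and 50.3% over 100 CPM. The homologues were not matched for level, and its part in their falls was not tested. The gene tra-1, the worm's GLI transcription factor and a regulator of sex determination, had 64.4 ± 14.4 CPM in FUDR, against 99.7 ± 7.55 CPM in OP50 (SD, n = 3 each), a change of −0.63 ± 0.152 (edgeR adjusted p = 0.0106). The exostosin genes rib-2 (−0.61) and rib-1 (−0.39), of heparan sulphate synthesis, fell, as did lin-23 (−0.53), the Slimb homologue. Falls were also called for gsk-3 (−0.56), the casein kinase gene kin-19 (−0.46), the megalin gene lrp-1 (−0.44), the SCAP homologue scp-1 (−0.40) and the protein kinase A subunit gene kin-2 (−0.40). The acyltransferase homologue hhat-2 rose (0.61, edgeR adjusted p = 0.0341), but was not called without FUDR replicate 1 (adjusted p = 0.0885) or 2 (0.107) or OP50 replicate 2 (0.108) or 3 (0.112). On the opposite strand hhat-2 overlaps rps-18 (−0.02) and rib-2 overlaps ran-1 (0.07), neither of them called. Reads of these pairs may not be told apart. The Dispatched homologues che-14 (0.35) and ptd-2 (0.32), the NPC1 homologues ncr-1 (−0.32) and ncr-2 (−0.17), and daf-6 (0.01), which encodes a Patched-related protein of glial channels, were not called, nor were kin-1 (−0.19) and hhat-1 (0.01). The falls of tra-1, rib-2 and lin-23 were called in every alternative. In all, 5 falls were called when FUDR replicate 2 or any 1 OP50 library was left out, 4 under upper quartile scaling, and just 3 using library size.

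Regulators of molting and its timing were mixed. Of 15 tested genes 5 fell and 2 rose, against 21% and 20.0% of all tested genes. Their median was −0.09, against 0.05 over all tested genes. The list was not matched for level, and the part of level in its falls was not tested. The receptor gene nhr-23, a driver of molting cycle transcription, was at 33.9 ± 3.38 CPM in FUDR, against 56.2 ± 2.51 CPM in OP50 (−0.73 ± 0.0933, edgeR adjusted p = 0.000597). The heterochronic gene lin-41 (−1.48), the Period homologue lin-42 (−1.05), the transcription factor gene myrf-1 (−0.82) and the zinc finger gene bed-3 (−0.39) also fell. In OP50 lin-41 was at a mean of 338 CPM, against 121 CPM in FUDR. The summed germline markers were also lower in FUDR, and their part in these falls was not tested. The bed-3 call was lost under upper quartile scaling (edgeR adjusted p = 0.117), library size only (0.343) and without OP50 replicate 2 (0.0802) or 3 (0.0588), and that of lin-42 with no filter (0.0750). The ankyrin repeat gene mlt-4 rose, at 12.7 ± 0.438 CPM in FUDR, against 3.88 ± 0.446 CPM in OP50 (1.71 ± 0.123, edgeR adjusted p = 6.7e-05). The related mlt-3 (0.36, edgeR adjusted p = 0.0321) was not called without FUDR replicate 2 (adjusted p = 0.119) or 3 (0.0663) or OP50 replicate 1 (0.0866), 2 (0.0915) or 3 (0.0808), nor with no filter (0.0534). On the opposite strand mlt-3 overlaps F35G2.5 (0.05) and bed-3 overlaps dur-1 (−0.28), neither of them called. Reads of these pairs may not be told apart. How far along the molting cycle the worms of each group were is not given in the labels, and its part in the member results was not tested.

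Libraries of one group also differed among themselves. For the median member the highest FUDR library was 1.36 times the lowest, and the highest OP50 library 1.38 times the lowest. Of the 71 tested members 32 were highest within FUDR in replicate 3, 29 in replicate 1 and 10 in replicate 2. Within OP50, 35 were highest in replicate 1 and 18 in each of the other libraries. By family the median ratio was 1.45 in FUDR and 1.53 in OP50 for grl genes, and 1.28 in FUDR and 1.23 in OP50 for ptr genes. An example with wide spread was grl-27, picked after its values were seen, at 4.61, 2.68 and 4.34 CPM in FUDR and 2.35, 10.03 and 6.39 CPM in OP50. It was not called (−0.68 ± 0.462, edgeR adjusted p = 0.270) but was called without OP50 replicate 1 (−1.09, adjusted p = 0.0207).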

How the data were processed

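Raw counts per gene were deposited for 6 libraries. The tools STAR and HTSeq and the build WBcel235 are those named in the submitters' processing notes. Neither versions nor a strand setting or gene annotation are stated there. Summary rows that name no gene (4.55% to 5.33% of a library) entered neither library sizes nor tests. Genes were named from the supplied name table and placed with the Ensembl release 115 annotation of WBcel235, in which all 46926 were found. No sequences were used.

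All genes were fitted with edgeR 4.0.16 in R 4.3.3 (filterByExpr with minimum count 10 and total 15, TMM factors, robust quasi-likelihood F test, Benjamini-Hochberg adjustment, threshold 0.05). Each standard error is the log2 fold change, without its sign, over the square root of F. CPM is scaled by TMM. RPKM divides CPM by the summed exon length. Alternatives were DESeq2 1.42.0, limma-voom (limma 3.58.1), RLE, upper quartile or no scaling factor, no filter, the replicate number as a block, and leaving out each library. Whether libraries came from separate cultures is not in the labels, so p-values measure only how these libraries vary, which may be technical. No pair of a group agreed within sampling noise (chi-square per degree of freedom at least 15.2, and 126 for FUDR replicates 1 and 3).

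The members and lists were chosen with earlier results of these data known. The text names every called member, ptc-1, ptc-3, qua-1 and hog-1, the 2 members of each family with the highest RPKM, the uncalled member of each family furthest from 0, and untested members. Of the 16 molting regulators written out, pqn-47 was not matched by symbol, nor was elt-5 of 8 seam markers.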

Additional observations from a re-analysis of the deposited data

How the results depend on the processing

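With library size only 10 members were higher and 10 lower, and with upper quartile scaling 10 and 12. Hedgehog-related genes called higher were 7 with either scaling, 5 with DESeq2, limma-voom, no filter or the replicate block, and 2 to 5 when single libraries were left out. With library size only 5 Hedgehog-related and 5 Patched-related genes were lower. Leaving out libraries gave 5 to 8 members higher and 12 to 17 lower, with 6 to 9 Hedgehog-related and 6 to 9 Patched-related genes lower and 3 Patched-related genes higher each time. Pathway homologues called lower were 4 with upper quartile scaling, 3 with library size only and 5 to 11 without single libraries, and 2 were higher with either scaling and 0 to 1 without single libraries. Molting regulators called higher were 1 with no filter and 1 to 2 without single libraries, and 4 to 6 were then lower. Over all genes, library size only gave 5814 higher and 1931 lower, and leaving out libraries 2327 to 3400 higher and 2679 to 3834 lower. The share of calls that were higher was 48.67% under TMM, 66.63% under upper quartile scaling and 75.07% under library size only. Of the 71 tested members 23, none of them called, changed sign in at least 1 alternative, 11 with library size only and 7 under upper quartile scaling. Among members named by rule the sign turned for grl-4 without FUDR replicate 1 (−0.09) or OP50 replicate 1 (−0.13, range without single libraries −0.13 to 0.12), hog-1 without FUDR replicate 3 (−0.019, range −0.019 to 0.29) and ptc-3 with library size only (0.035). The cause of these changes was not tested, beyond fewer samples when a library is left out. Replicate numbers did not pair the libraries (correlations of deviations 0.055, −0.017 and 0.058). With the replicate block 8 members were higher and 15 lower, and ptr-24 lost its call (−0.31, adjusted p = 0.0578). Of 611 gene results under the alternatives 523 kept direction and side of the threshold, 73 lost and 11 gained a call. Depth limits the 14 untested members, whose counts lie near the floor of 3. The planned promoter and protein descriptions were not run.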
